A study of Mus musculus with 8 samples.

Results

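The intraflagellar transport (IFT) and BBSome genes are the core parts list of the cilium, shared by motile cilia and by the primary cilium that most neurons and astrocytes carry. Here they are 35 genes, taken from the 37310 genes of the count table by symbol: names that begin with Ift, Bbs, Nphp or Tctn and a number, with Mks1, Arl13b, Arl6, Kif3a, Kif3b and Kif17 added. The rule works on names alone, though it was set with earlier results of these data known. GENCODE vM21 annotates 33 of the 35 as protein coding, Tctn2 as a processed transcript, although tectonic 2 is a known protein, and Ift88os as a noncoding RNA antisense to Ift88. RNA was sequenced from the hippocampus of 4 mice heterozygous for an Nr2f1 knockout (HET) and 4 wild-type mice (WT), each library from its own animal. All were B6.129 F1 hybrids, 3 months old and labelled male. The kind of knockout allele is not stated in the labels. Nr2f1 encodes COUP-TFI, a nuclear receptor that patterns the developing forebrain, and the comparison asks what changes in the adult hippocampus when it is reduced.

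Ciliary cargo travels along the axoneme on trains of IFT proteins. Kinesin-2 motors pull the trains outward with the IFT-B complex, and dynein-2 returns them with IFT-A. The BBSome rides on the trains and moves membrane receptors of the cilium, in neurons among them somatostatin and melanin-concentrating hormone receptors. A gate at the cilium's base, the transition zone, built from tectonic, nephrocystin and Meckel syndrome proteins, controls what enters. Loss of these genes causes Bardet-Biedl, Joubert, Meckel and nephronophthisis disorders in humans.

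Libraries held 58717305 to 90043971 gene counts. Levels are given as CPM, read counts relative to library size after scaling by the TMM method. As a check of the labels, Nr2f1 had 32.4, 31.0, 33.5 and 28.5 CPM in HET libraries 1 to 4, against 53.4, 49.5, 54.1 and 51.6 CPM in WT libraries 1 to 4, and fell to 0.601 of WT (edgeR adjusted p = 7.32e-05). The sex label was not borne out: Xist lay between 463.2 and 601.4 CPM in all 8 libraries, and the 14 Y-linked genes together had 3 counts. Because this held in both genotypes, it does not separate them. Neuron markers were abundant, with a summed level of 2820 to 3174 CPM in HET and 3324 to 3501 CPM in WT libraries. Snap25 was the largest part of these sums, at 1549 to 1793 CPM in HET and 1846 to 2000 CPM in WT libraries. Of the 10 markers 7 overlapped between genotypes.

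None of the 35 genes passed the test between genotypes. With edgeR's quasi-likelihood test and an adjusted p under 0.05, 0 of 35 were called, where 2.99% of the 17913 genes tested were called (2.62% higher and 0.368% lower). At that share 35 genes would hold 1.05 calls, so the count of 0 does not set them apart from all genes. At an unadjusted p under 0.05 there were 2, Tctn2 and Arl13b, against 17.2% of all genes. The same 2 genes were the ones whose libraries did not overlap between genotypes, both with HET above WT, against 10.6% of all genes (6.99% with HET above and 3.59% with HET below). DESeq2's Wald test called 1, Tctn2, where it called 4.38% of the 27021 genes with a p-value, and limma-voom called 0. Those 27021 include genes that DESeq2's own filter left without an adjusted p, so this share is not directly comparable with the edgeR shares. In bulk tissue a change in the number of cells of a type and a change in RNA per cell cannot be told apart.

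The differences were small and closely bounded. The median log2 fold change of HET over WT was 0.021, beside -0.0056 over all genes tested, and the genes named here ran from -0.088 to 0.28. Values lay above 0 for 22 genes and below it for 13, but with spike-in scaling for 33 and 2, where the median of all genes was 0.0715. The fit called spike-in scaling here also had the spike-in mix, taken as odd or even replicate number, as a covariate. Its library sizes were set within each mix. For 32 of the 35 the 95% interval of the fold change lay wholly between 0.8 and its reciprocal, as it did for 10615 of the 17913 genes tested. These intervals are per gene and not adjusted for the number of genes. The standard error of the log2 fold change had a median of 0.049, beside 0.070 over all genes. The spread between libraries of one genotype had a median coefficient of variation of 4.26%, beside 7.04% over all genes. All genes but Ift88os had at least 221 counts in every library.

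**Figure D1:**
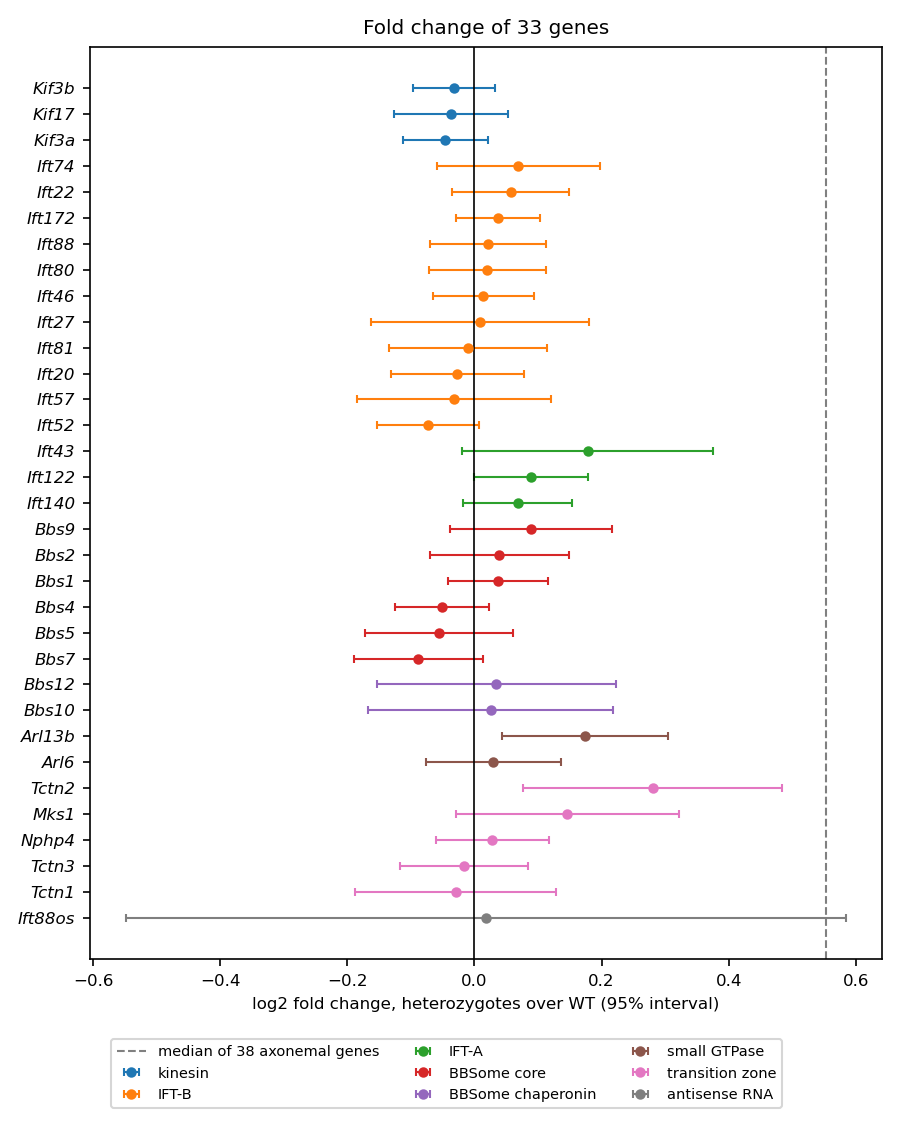
Log2 fold change of HET over WT with its 95% interval for 33 of the 35 genes, coloured by role, with the median of 38 axonemal genes as a dashed line. The points lie between -0.088 and 0.28, and every upper bound except that of Ift88os lies left of the dashed line at 0.55.

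Tctn2 had the highest fold change of the group. It encodes tectonic 2, a transition zone protein needed for Hedgehog signalling through the cilium (ENSMUSG00000029386.8, chromosome 5). It had 27.5, 30.0, 27.6 and 27.2 CPM in HET libraries 1 to 4, against 25.1, 21.8, 19.0 and 26.5 CPM in WT libraries 1 to 4. The HET libraries lay close together, and the WT libraries were spread, with library 3 lowest and library 4 just under the lowest HET library. The fold was 1.21 with a 95% interval of 1.05 to 1.40 (edgeR adjusted p = 0.140). It rose past the threshold without WT library 4 (log2 fold change 0.36, edgeR adjusted p = 0.0336), where 4.23% of all genes were called. It also did so by DESeq2 (0.28, adjusted p = 0.0387). With spike-in scaling and the mix covariate it passed too (0.36, edgeR adjusted p = 0.00118), where 6.05% of all genes were called. Over all alternatives its log2 fold change ran from 0.19 to 0.36 and its adjusted p from 0.00118 to 0.994. The ratio of spike-ins split the libraries into odd and even replicate numbers. Tctn2 had a log2 fold change of 0.33 among odd numbers (edgeR adjusted p = 0.279) and 0.24 among even numbers (edgeR adjusted p = 0.582).

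Arl13b encodes a small GTPase of the ciliary membrane that recruits lipid-modified proteins, and its product is a common stain for neuronal cilia. It had 10.9, 11.1, 11.7 and 10.3 CPM in HET libraries 1 to 4, against 9.38, 9.68, 9.93 and 10.1 CPM in WT libraries 1 to 4. The genotypes did not overlap, though HET library 4 and WT library 4 were close. The fold was 1.13 (95% interval 1.03 to 1.23, edgeR adjusted p = 0.145), and it passed under none of the 23 alternatives. Arl6, the GTPase that brings the BBSome to membranes, had 19.97, 19.98, 19.6 and 20.01 CPM in HET libraries, against 20.1, 18.1, 19.2 and 20.5 CPM in WT libraries. Its HET values all fell inside the WT range.

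**Figure D2:**
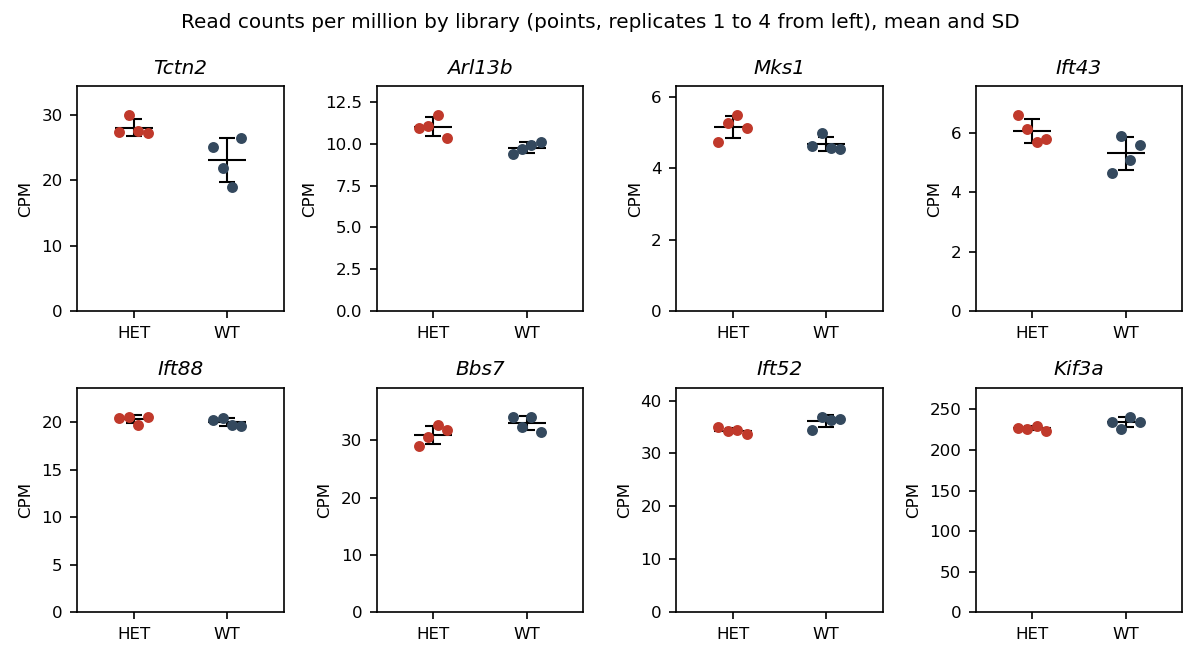
CPM of 8 genes in each library (points, replicates 1 to 4 from left to right), with the mean and SD of each genotype; HET stands left of WT and each axis starts at 0. Tctn2 and Arl13b separate the genotypes; Mks1, Ift43, Ift88, Bbs7, Ift52 and Kif3a overlap.

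The kinesin-2 motor genes had folds just under 1 with TMM scaling, and just over 1 with spike-in scaling. Kif3a and Kif3b encode the paired motor subunits of the main anterograde kinesin. Kif3a had 227, 226, 230 and 224 CPM in HET libraries, against 234, 226, 241 and 235 CPM in WT libraries, a fold of 0.969 (95% interval 0.925 to 1.01, edgeR adjusted p = 0.491). Kif3b had 107, 105, 104 and 106 CPM in HET libraries, against 109, 107, 111 and 105 CPM in WT libraries, a fold of 0.978. Both overlapped between genotypes. Kif17 encodes a further kinesin-2 motor that in neurons also moves NMDA receptor vesicles in dendrites. It had 26.4, 27.3, 27.4 and 28.7 CPM in HET libraries and 28.9, 28.5, 28.0 and 27.3 CPM in WT libraries, a fold of 0.975. Kif3c, a kinesin-2 motor gene outside the 35, had a fold of 0.958 and did not pass (edgeR adjusted p = 0.352). All its HET libraries lay below all its WT libraries, as in 3.59% of all genes. Of the 10 neuron markers 3 fell, Wfs1, Rbfox3 and Snap25, at 0.846, 0.912 and 0.873 of WT (edgeR adjusted p = 0.0362, 0.0396 and 0.0419). The other 7 were not called, and over all genes 0.368% were called lower. The log2 fold change lay below 0 for 7 of the 10 markers and above 0 for 3. Each of the 3 calls was lost when most single libraries were left out. Rbfox3 was lost whenever any library but WT 4 was left out (edgeR adjusted p = 0.0512 to 0.125). The Wfs1 call was kept only without WT library 1, and the Snap25 call only without HET library 2 or WT library 2. All 3 were also lost with spike-in scaling, where Wfs1, Rbfox3 and Snap25 had log2 fold changes of -0.16, -0.052 and -0.11 (edgeR adjusted p = 0.403, 0.840 and 0.660), and with the replicate block (edgeR adjusted p = 0.0653, 0.122 and 0.112). With spike-in scaling the log2 fold changes of Kif3a, Kif3b and Kif17 lay above 0, at 0.035, 0.048 and 0.040. The part of neuron content in the kinesin values was not tested.

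The IFT-B genes, which form the anterograde train, did not move as a group. The 11 members had a median log2 fold change of 0.014 and 7 lay above 0; none passed. Ift88, whose loss in mice leaves cells without cilia, had 20.4, 20.5, 19.6 and 20.5 CPM in HET libraries, against 20.2, 20.4, 19.7 and 19.6 CPM in WT libraries. The fold was 1.01, with a 95% interval of 0.952 to 1.08. Ift172, a large subunit at the train's periphery, stood at 83.8 ± 1.69 CPM in HET and 81.7 ± 0.921 CPM in WT (SD, n = 4 each). Ift20, which also works at the Golgi, had 40.4, 34.5, 37.9 and 36.3 CPM in HET libraries and 38.6, 38.8, 36.3 and 38.03 CPM in WT libraries. Those HET libraries spanned the whole WT range. Ift52, a core scaffold subunit, had the lowest fold of the complex, 0.951 (95% interval 0.899 to 1.01), with 34.95, 34.2, 34.5 and 33.8 CPM in HET libraries and 34.5, 36.9, 36.4 and 36.6 CPM in WT libraries. WT library 1 kept the genotypes from separating. The remaining IFT-B members, Ift22, Ift27, Ift46, Ift57, Ift74, Ift80 and Ift81, had folds from 0.978 (Ift57) to 1.05 (Ift74).

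The 3 IFT-A members, of the retrograde complex, all had folds above 1, and none passed. Ift122 stood at 38.3 ± 1.43 CPM in HET and 36.0 ± 1.28 CPM in WT (SD, n = 4 each), a fold of 1.06. Ift140 had a fold of 1.05. Ift43, a small linker subunit, had 6.59, 6.13, 5.71 and 5.80 CPM in HET libraries, against 4.65, 5.91, 5.09 and 5.58 CPM in WT libraries. Its fold was 1.13 (95% interval 0.987 to 1.30, edgeR adjusted p = 0.344), and WT library 2 lay above 2 of the HET libraries. The other IFT-A subunits carry names outside the member pattern and are named here to complete the complex. Their folds were 0.947 for Ttc21b, 1.05 for Wdr35 and 1.00 for Wdr19, so the IFT-A subunits as a whole lay on both sides of 1.

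The 6 members of the BBSome itself had a median log2 fold change of -0.007, 3 above 0 and 3 below. Bbs1, the subunit that contacts Arl6 and a frequently mutated gene in Bardet-Biedl syndrome, stood at 65.9 ± 2.82 CPM in HET and 64.2 ± 0.487 CPM in WT (SD, n = 4 each). Bbs7 had 29.0, 30.5, 32.6 and 31.7 CPM in HET libraries, against 34.0, 32.4, 34.1 and 31.5 CPM in WT libraries, a fold of 0.941 (95% interval 0.877 to 1.01). Bbs5, which binds membrane lipids, had 15.3, 16.0, 16.3 and 15.3 CPM in HET libraries and 17.2, 16.4, 16.8 and 15.2 CPM in WT libraries. In Bbs7 WT libraries 2 and 4 fell among the HET libraries, and in Bbs5 it was the lowest of all 8. Bbs2, Bbs4 and Bbs9 had folds of 1.03, 0.965 and 1.06. Bbs10 and Bbs12, chaperonin-like proteins that assemble the BBSome, had folds of 1.02 and 1.02 at 4.99 and 3.79 CPM in HET.

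The other transition zone members lay on both sides of 1. Mks1 had 4.74, 5.27, 5.49 and 5.14 CPM in HET libraries, against 4.63, 4.99, 4.57 and 4.55 CPM in WT libraries, a fold of 1.11 (95% interval 0.980 to 1.25, edgeR adjusted p = 0.391). WT library 2 lay above HET library 1. Nphp4, a nephrocystin gene, had a fold of 1.02. The relatives of Tctn2 did not share its fold: Tctn3 was at 0.989, and Tctn1 had 10.7, 9.98, 11.1 and 11.4 CPM in HET libraries and 11.3, 11.7, 9.66 and 11.5 CPM in WT libraries, a fold of 0.980. In the GENCODE annotation 19.0% of the exon bases of Tctn1 overlap Hvcn1 on the opposite strand, and the library kit does not mark strand, so some of these reads may belong to Hvcn1. Reads of Ift88os and Ift88, which overlap, likewise cannot be told apart there. Ift88os had 263 counts in all, 23 in its lowest library. Its log2 fold change of 0.018 had a 95% interval of -0.55 to 0.58, too wide to bound a change.

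Levels per length differed widely between genes and little between genotypes. Kif3a was highest, at 63.2 ± 0.707 CPM per kilobase of exon in HET and 65.2 ± 1.72 in WT (SD, n = 4 each). Next came Ift20, at 24.4 ± 1.62 in HET and 24.9 ± 0.728 in WT, and Kif3b, at 18.7 ± 0.191 in HET and 19.1 ± 0.383 in WT. The lowest were Tctn1, at 1.30 ± 0.0754 in HET and 1.33 ± 0.112 in WT, Mks1, at 1.28 ± 0.0775 in HET and 1.16 ± 0.0507 in WT, and Ift88os, at 0.201 ± 0.0617 in HET and 0.203 ± 0.0218 in WT. Levels per length also differed within one complex, since IFT-B spanned Ift80 to Ift20, with 2.92 and 24.9 CPM per kilobase in WT. Before division by length Ift80 and Ift20 were close, at 36.3 and 37.9 CPM in WT. Their annotated exons cover 12428 and 1525 bases, so that gap comes from the lengths used.

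**Figure D3:**
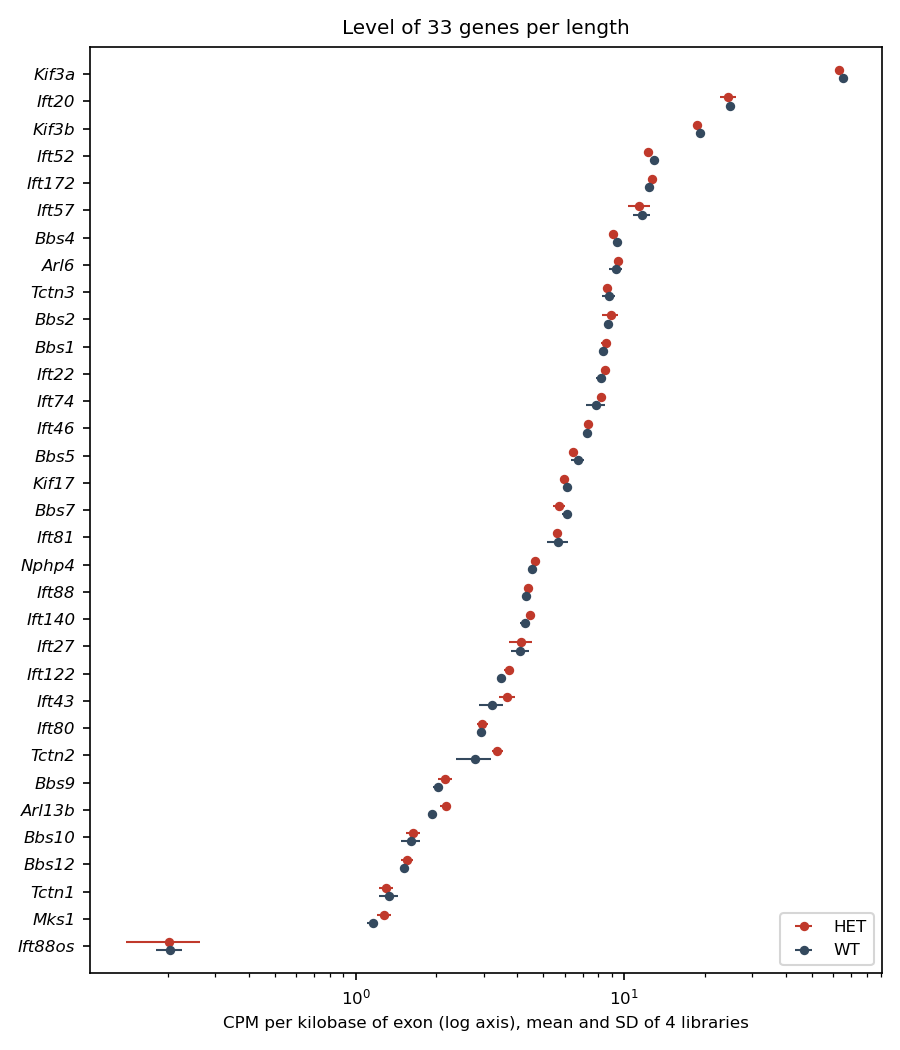
CPM per kilobase of exon on a log axis for 33 of the 35 genes, mean and SD of 4 libraries, HET above WT in each row. Kif3a, at 63.2 in HET and 65.2 in WT, stands apart at the top, and the genotypes lie on or next to each other in nearly every row.

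Genes of the same pathway under other names were called at about the share of all genes, which was 2.99%, or 17.2% at an unadjusted p under 0.05. Their counts therefore do not set them apart. Of 19 further IFT, BBSome and kinesin-2 partners 0 passed (median log2 fold change 0.0095); those with the lowest p were Kifap3, the kinesin-2 adaptor, at 0.928 of WT, and Traf3ip1, an IFT-B subunit gene, at 1.09-fold (edgeR adjusted p = 0.215 and 0.291). Of 9 dynein-2 genes 0 passed; Dync2li1, its light intermediate chain, had a fold of 1.08, and Dynlt3, a light chain, one of 0.920 (edgeR adjusted p = 0.288 and 0.308). Of 19 genes for basal bodies and membrane delivery 0 passed; Cep89 had a fold of 1.10 and the kinase gene Ttbk2 one of 0.912 (edgeR adjusted p = 0.154 and 0.175). Of 18 ciliary receptors and signalling genes 0 passed. There Ptch1 and Smo, the Hedgehog receptor and its partner, had folds of 1.14 and 1.16 (edgeR adjusted p = 0.0559 and 0.0817), and Ptch1 lies on chromosome 13 with Nr2f1. At an unadjusted p under 0.05 these 4 groups held 2, 1, 4 and 3 genes in the same order.

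Tmem237, a transition zone membrane protein gene mutated in Joubert syndrome, was the 1 of 20 further transition zone genes that passed, where 2.99% of all genes did. It rose, with 31.9, 32.5, 28.7 and 29.3 CPM in HET libraries, against 21.8, 23.3, 24.2 and 26.2 CPM in WT libraries. All HET libraries lay above all WT libraries, and the fold was 1.28 (95% interval 1.17 to 1.40, edgeR adjusted p = 0.0106). It kept its call without any 1 library, but not without WT libraries 1 and 3 together (log2 fold change 0.30, edgeR adjusted p = 0.110). The median log2 fold change of those 20 genes was 0.054, and 16 lay above 0, beside 8573 of the 17913 genes tested. Of the 20, 5 had an unadjusted p under 0.05, against 17.2% of all genes. In 3 of the 20 all HET libraries lay above all WT libraries, against 6.99% of all genes. Among 12 transcription factors and cofactors of ciliary genes 2 rose, where 2.62% of all genes were called higher. Rfx2, an RFX factor of multiciliated cells, rose to 6.94 ± 0.889 CPM in HET, against 4.83 ± 0.487 CPM in WT (SD, n = 4 each), and Trp73, a multiciliation regulator, to 8.70 ± 1.19 CPM in HET, against 6.04 ± 0.420 CPM in WT (edgeR adjusted p = 0.0252 and 0.0184). The Trp73 call was lost without HET library 4, WT library 1 or WT library 3 (edgeR adjusted p = 0.0552, 0.0624 and 0.0656). The Rfx2 call was kept only without HET library 3 or WT library 4, and was otherwise lost at an edgeR adjusted p of 0.0529 to 0.0869. Rfx3, the RFX gene with the highest CPM per kilobase in the list, had a fold of 0.953 and did not pass (edgeR adjusted p = 0.678).

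Genes of the motile axoneme gave more calls in the same libraries. Over all genes tested 2.62% were called higher. Of 38 tested genes named Cfap, Rsph or Drc, 18 rose and 0 fell, with a median log2 fold change of 0.55. Of 18 tested axonemal dynein genes and their assembly factors 6 rose and 0 fell, also with a median of 0.55. In 34 of the 35 IFT and BBSome genes the upper bound of the 95% interval lay under the axonemal median fold of 1.47; the exception was Ift88os. The difference between the groups of genes was not tested. With single libraries left out, 6 to 21 axonemal genes and 0 to 9 dynein genes rose, while the calls over all genes ran from 171 to 767. The axonemal count was 6 without HET library 4 or WT library 3, 8 without WT library 1 and 11 without HET library 2. The dynein count was 0 without WT library 3, 2 without WT library 1 and 4 without HET library 1 or 4. With the ependymal score in the fit, 0 of either group rose and the axonemal median was 0.04. With the choroid plexus score that median was 0.24, and again 0 of either group rose. These fits called 0 and 1 of all genes, so their counts of 0 cannot tell these groups from other genes. Both scores also separated the genotypes, and the ependymal score includes Rsph1, an axonemal gene. The part of either cell type in the axonemal values was not tested. The axonemal genes had a median level of 0.948 CPM per kilobase in WT, against 6.12 for the IFT and BBSome genes.

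Markers of ependymal cells, which carry tufts of motile cilia, were higher in HET like the axonemal genes, and so were choroid plexus and meningeal markers. Rsph1 is in both the ependymal and the axonemal list. Of 10 ependymal markers 7 rose, where 2.62% of all genes were called higher. The summed level of the 10 was 42.3 to 58.5 CPM in HET, against 15.3 to 28.3 CPM in WT libraries. With single libraries left out, 3 to 7 of the 10 rose, 3 of them without HET library 2, HET library 4 or WT library 3, and 4 without HET library 1 or WT library 1. No marker was at 0 in any library. The 12 choroid plexus markers summed to 4109 to 4645 CPM in HET and 84.5 to 2117 CPM in WT libraries. Ttr was the largest part of these sums, at 3698 to 4201 CPM in HET and 44.9 to 1884 CPM in WT libraries. In each of the 12 all HET libraries lay above all WT libraries. Their median log2 fold change was 1.86, beside 1.34 for the ependymal markers. Of the 12, 0 passed by edgeR and 11 had an unadjusted p under 0.05. The 9 meningeal markers summed to 329.8 to 393.7 CPM in HET and 98.8 to 248.5 CPM in WT libraries. Igf2 was the largest part of these sums, at 229 to 271 CPM in HET and 43.1 to 156 CPM in WT libraries. Most of the gap between genotypes in the sums was that of Igf2, so the sums do not show a rise of the other meningeal markers. The median log2 fold change of the 9 was 0.80 and all 9 lay above 0, but 5 overlapped between genotypes. By edgeR 0 passed and 5 had an unadjusted p under 0.05. The part of meningeal cells in the axonemal values was not tested. The IFT and BBSome genes summed to 1199 to 1223 CPM in HET and 1193 to 1216 CPM in WT libraries, which overlap. WT libraries 1 and 3 had the lowest ependymal sums, 15.3 and 15.4 CPM, and their IFT and BBSome sums were 1210 and 1216 CPM. WT libraries 2 and 4 had ependymal sums of 28.3 and 27.5 CPM, and IFT and BBSome sums of 1193 and 1214 CPM. Without WT libraries 1 and 3 the median log2 fold change of the 35 genes was 0.013, and adding the ependymal score to the fit gave 0.017. With that covariate Tctn2 had a log2 fold change of 0.19 and Arl13b one of 0.19 (edgeR adjusted p = 0.994 for both), but no gene at all passed in that fit, Nr2f1 included. None of the 35 is in a marker list used here.

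**Figure D4:**
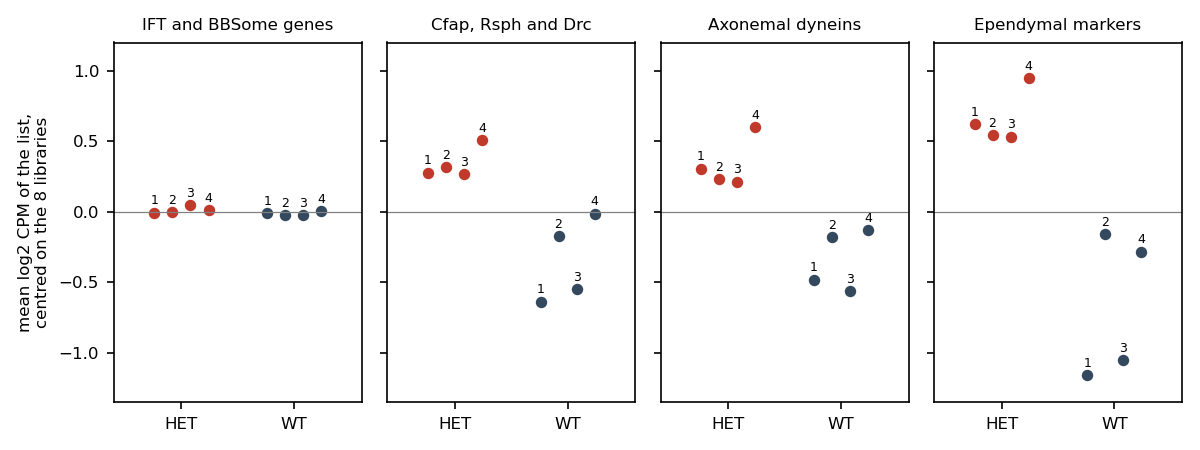
Mean log2 CPM of 4 groups of genes in each library, centred on the mean of the 8 libraries, with HET left of WT and replicate numbers beside the points. The IFT and BBSome genes stay between -0.023 and 0.046, while ependymal markers run from 0.53 to 0.95 in HET and from -1.16 to -0.16 in WT.

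Some of the genes hold an RFX motif in their promoter, which their choice did not use. RFX factors bind the X-box, a pair of inverted arms, and switch on many ciliary genes. RefSeq promoters (GRCm38.p6, 250 bases before to 50 after the annotated start) were matched for 29 of the 35 genes. An X-box, spelled GTNNCC, a gap of 0 to 3 bases and GGNNAC and read on both strands, was present in 10 of the 29 (34.5%), against 4.38% of the 27025 genes with a promoter in the table. One arm alone, GTTGCC, which can lie inside an X-box, was present in 16 of 29 (55.2%), against 14.1% of all. Among axonemal genes 7 of 31 (22.6%) had the X-box and 12 of 31 (38.7%) the single arm. The forkhead core GTAAACA, which FOXJ1 and its relatives bind, was in 0 of 29, in 2 of 31 axonemal promoters and in 4.05% of all. A match describes these letters only and shows no binding. The promoters of the 35 genes also had a median GC content of 60.2%, against 52.7% over all promoters, and the motif shares were not adjusted for it. The genes are spread over 15 chromosomes, none of them chromosome 13, where Nr2f1 lies.

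The X-box matches of the 10 genes are shown so that their arms can be compared. Each line runs 5′ to 3′ on the gene's strand (coordinates GRCm38.p6), with the X-box in capitals and up to 8 flanking bases in lower case.
Bbs1, chr19:4906605-4906634, minus strand: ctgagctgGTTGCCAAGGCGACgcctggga
Bbs4, chr9:59353464-59353493, minus strand: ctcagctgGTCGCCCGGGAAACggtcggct
Bbs7, chr3:36613489-36613518, minus strand: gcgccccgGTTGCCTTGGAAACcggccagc
Ift22, chr5:136908079-136908108, plus strand: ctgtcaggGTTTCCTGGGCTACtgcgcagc
Ift22, chr5:136908109-136908138, plus strand: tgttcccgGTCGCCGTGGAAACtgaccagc
Ift57, chr16:49699199-49699228, plus strand: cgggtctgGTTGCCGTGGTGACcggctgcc
Ift57, chr16:49699226-49699254, plus strand: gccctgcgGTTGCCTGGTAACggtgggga
Mks1, chr11:87853183-87853212, plus strand: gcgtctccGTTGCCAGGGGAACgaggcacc
Nphp4, chr4:152477903-152477932, plus strand: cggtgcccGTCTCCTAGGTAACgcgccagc
Tctn1, chr5:122264411-122264432, minus strand: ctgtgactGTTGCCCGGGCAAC
Tctn2, chr5:124598679-124598708, plus strand: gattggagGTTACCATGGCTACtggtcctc
Tctn3, chr19:40612351-40612379, minus strand: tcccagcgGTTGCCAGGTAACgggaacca
In 6 of these genes, Bbs1, Bbs7, Ift57, Mks1, Tctn1 and Tctn3, the X-box holds GTTGCC, and Ift22 and Ift57 have a pair of X-boxes each. The fold changes of the 10 genes ran from 0.941 in Bbs7 to 1.21 in Tctn2, and 0 of 10 passed the test.

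The promoters of Tctn2 and Arl13b, which had the lowest p of the group, are given whole, with X-boxes and GTTGCC in capitals.
Tctn2, chr5:124598499-124598798, plus strand: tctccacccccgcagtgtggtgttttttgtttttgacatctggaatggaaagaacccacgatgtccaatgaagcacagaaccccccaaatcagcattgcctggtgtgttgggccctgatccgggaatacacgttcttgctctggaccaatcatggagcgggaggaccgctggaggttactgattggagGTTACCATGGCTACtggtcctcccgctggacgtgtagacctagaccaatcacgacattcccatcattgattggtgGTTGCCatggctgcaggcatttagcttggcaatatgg
Arl13b, chr16:62846991-62847290, minus strand: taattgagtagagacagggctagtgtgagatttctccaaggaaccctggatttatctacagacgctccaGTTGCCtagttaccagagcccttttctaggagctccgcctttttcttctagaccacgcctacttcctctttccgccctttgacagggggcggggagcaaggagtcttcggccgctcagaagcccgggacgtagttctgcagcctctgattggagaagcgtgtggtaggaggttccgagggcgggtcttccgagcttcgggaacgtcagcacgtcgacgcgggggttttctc
The Tctn2 window holds an X-box at bases 189 to 202, before the annotated start, and a separate GTTGCC after the start. The Arl13b window holds GTTGCC and no X-box as spelled here.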

How the data were processed

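RNA from the hippocampus of 8 mice was made into libraries using NuGEN Ovation RNA-Seq chemistry, which amplifies from poly(A) ends and by random priming, per the labels' protocols. The authors deposited raw read counts per Ensembl gene, with 92 ERCC spike-in rows. FastQC, STAR 2.4.2a, HTSeq and DESeq2, and the builds NCBIM37 and mm9, are named in the submitters' processing notes, with settings and annotation not given in the sources used here. Symbols (matched to 32620 identifiers), exon lengths and chromosomes came from GENCODE vM21 on GRCm38, so none of its coordinates are printed; exon overlaps were taken within that build; lengths may differ from those counted on.

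Spike-in rows entered neither library sizes nor tests. Counts were filtered by filterByExpr (minimum count 10, total 15), scaled by TMM and compared with the robust quasi-likelihood F test of edgeR 4.0.16 in R 4.3.3 over all genes, two-sided, with Benjamini-Hochberg adjustment. Standard errors are the log2 fold change over the root of F. List scores are means of log2 CPM with a prior count of 2. DESeq2 1.42.0, limma 3.58.1 and other scalings, filters, covariates and subsets were the alternatives, 23 in all. The members, lists, naming rule and tests were chosen with earlier results of these data known. Members given in every library were those called, the 4 highest and 4 lowest by fold change, the 3 highest and 3 lowest per length, and those added by name; a few others complete a complex. Single values of 2 members are not reported here; counts and medians cover all 35. Genes named from each pathway list are those past the test or, where none passed, the 2 with the lowest p. Rfx3, Kif3c and the 3 neuron markers were named after their values were seen. Axonemal, dynein and marker lists are given by counts, medians and sums. Igf2, Ttr and Snap25 were named, after their values were seen, as the largest parts of their sums. Within a genotype every pair of libraries differed beyond sampling noise (chi-square per degree of freedom 7.42 to 25.0). A count of 0 allows up to 3 counts, 0.0332 to 0.0510 CPM by library, for counting error only.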

Additional observations from a re-analysis of the deposited data

Results flagged for a closer look

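Of 80 groups of 4 libraries examined (each gene in each genotype, and 5 list scores), 5 had a library whose gap to its nearest neighbour exceeded the 95% critical value of Dixon's gap test; chance flags about 1 group in 20. HET library 3 was far above the other HET libraries in Ift27, at 13.5 CPM, and far below them in Ift88, at 19.6 CPM, and in Arl6, at 19.6 CPM. WT library 2 was far above the other WT libraries in Mks1, at 4.99 CPM, and HET library 2 above the other HET libraries in Tctn2, at 30.0 CPM. The Ift88 and Arl6 ranges are narrow, so those gaps are under 1 CPM. The mean log2 CPM of the 35 genes was 0.046 above the mean of the 8 libraries in HET library 3, the highest of the 8, and was not flagged.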

How the results depend on the processing

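None of the 35 genes was called lower under any of the 23 alternatives, and 1, Tctn2, was called higher with spike-in scaling, by DESeq2's Wald test and without WT replicate 4; the other alternatives called 0. Leaving out single libraries gave 0 to 1 higher calls. The median log2 fold change of the 35 genes ran from 0.012 to 0.041 with single libraries left out and was 0.098 with spike-in scaling, where the median of all genes was 0.072; leaving out WT replicate 4 gave the 0.041, and the other alternatives moved it by less than 0.0187, the SD between libraries of the genes' mean log2 CPM. Of the 35 genes, 14 kept their sign under all alternatives and 21 did not, 11 of them turning with spike-in scaling; 0 of those 21 were called. The count over all genes, 535, was 1084 with spike-in scaling, 1183 by DESeq2, 231 with animal numbers split into runs in the fit, 0 with the ependymal score, 1 with the choroid plexus score, 78 among even-numbered libraries and 170 without WT replicates 1 and 3, and 171 to 767 with single libraries left out; the cause was not tested. Nr2f1 was not called with the ependymal score (-0.55, edgeR adjusted p = 0.882). Same-numbered libraries did not deviate together (correlations -0.0932 to 0.0269), which gives no sign of pairing but cannot exclude it. The ratio of spike-ins did follow odd and even replicate numbers in both genotypes. With the replicate block 406 genes and 0 of the 35 were called, and the median log2 fold change was 0.021. Depth limits Ift88os, with 23 counts in its lowest library.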
